A study of Mus musculus with 12 samples.

Results

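The genes described here encode the subunits of cohesin. They are Stag1, Stag2, Stag3, Smc1a, Smc1b, Smc3, Rad21 and Rec8, 8 of the 22180 genes that had a probe set with a single gene symbol. Stag3 was selected on its low values in all 6 AMPK-deficient arrays, so its difference between genotypes is given as a description with no test, and the other 7 genes were taken for comparison by their role. Each of the 8 genes had 1 probe set, so no choice between probe sets arose for them, and none was shared with another gene symbol.

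The arrays, 12 in 4 groups of 3, measured transcripts in C57BL/6J mouse leukemias initiated with MLL-AF9, a fusion oncogene of acute myeloid leukemia. Recipients irradiated with 10 Gy were given 50000 marrow progenitor and stem cells expressing MLL-AF9, which were either wild type with floxed alleles of the energy-sensing kinase AMPK (AMPKfl/fl) or AMPK-deficient with deleted alleles (AMPKΔ/Δ, called knockout below). From the bone marrow of recipients that had become leukemic, 5000 cells per sample were sorted for either genotype, as GFP+ cells without further gating (whole leukemia) or as L-GMP, the leukemic progenitors gated as GFP+, lin-, c-kit+, CD16/32+ and CD34+. The labels name neither the AMPK subunit gene that was deleted, nor the Cre or agent used, nor the ages of the mice, and they do not say whether recipients of 1 genotype shared a pool of transduced cells. Nor do they say that the replicates of a group came from separate mice, so p-values here reflect sample-to-sample spread that may be partly technical.

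Cohesin is a ring that holds sister chromatids together from replication to mitosis and folds chromatin into loops. In dividing somatic cells the ring consists of the ATPases Smc1a and Smc3, the kleisin Rad21 that closes it, and Stag1 or Stag2, which bind the kleisin and DNA. In meiosis, Smc1b takes the place of Smc1a, Rec8 that of Rad21 and Stag3 that of Stag1 and Stag2. Stag2, Smc1a, Smc3 and Rad21 are recurrently mutated in human acute myeloid leukemia. In mouse somatic cells, Stag3 and Smc1b are known to be kept silent by the transcriptional repressor E2F6.

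The promoters of the 3 meiosis-specific subunit genes are printed first, since Stag3 was the 1 of them with a signal well above the dimmest probe sets here. RefSeq windows of GRCm38.p6, from 250 bases before to 50 bases after 1 annotated transcript start, were at hand for 6 of the 8 genes. For Stag3, Stag1 and Rec8 that start lies downstream of the first base of the gene's RefSeq span, so other starts exist that were not examined. Capitals mark the E2F-type letters TCCCGC, searched on both strands, and the E-box letters CACGTG, which read the same on both strands. These letters overlapped in none of the windows printed.
Stag3 (chr5:138280259-138280558, + strand): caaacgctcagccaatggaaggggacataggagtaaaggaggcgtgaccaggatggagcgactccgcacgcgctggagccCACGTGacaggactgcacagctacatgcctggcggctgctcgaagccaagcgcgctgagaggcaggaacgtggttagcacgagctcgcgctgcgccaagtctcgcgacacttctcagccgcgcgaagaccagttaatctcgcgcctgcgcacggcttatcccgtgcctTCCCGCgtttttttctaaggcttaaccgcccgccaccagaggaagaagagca
Smc1b (chr15:85131908-85132207, - strand): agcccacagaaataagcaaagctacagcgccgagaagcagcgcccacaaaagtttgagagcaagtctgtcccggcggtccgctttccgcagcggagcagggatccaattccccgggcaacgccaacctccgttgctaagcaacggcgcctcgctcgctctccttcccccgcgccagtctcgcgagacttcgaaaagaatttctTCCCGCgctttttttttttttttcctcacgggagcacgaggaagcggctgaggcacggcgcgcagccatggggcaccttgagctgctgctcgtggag
Rec8 (chr14:55617916-55618215, + strand): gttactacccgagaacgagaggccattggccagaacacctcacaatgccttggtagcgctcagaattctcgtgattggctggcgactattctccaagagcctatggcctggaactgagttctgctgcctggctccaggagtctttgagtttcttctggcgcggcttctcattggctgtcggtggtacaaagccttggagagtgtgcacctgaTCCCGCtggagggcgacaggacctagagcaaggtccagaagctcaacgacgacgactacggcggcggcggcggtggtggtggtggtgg

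All 3 windows hold the E2F-type letters once, at -2 relative to that transcript start in Stag3, at -47 in Smc1b and at -38 in Rec8. Around this match Stag3 and Smc1b share the unbroken run CTTCCCGCG of 9 bases, which 0.441% of all 32851 windows hold on either strand. The E-box letters occur in the Stag3 window, at -170, and in neither of the other 2. Of all windows of the same length, 20.0% hold the E2F-type letters, 7.15% the E-box letters and 1.99% both. The E2F-type letters also occur in the windows of the somatic subunit genes Stag1, Smc1a and Smc3, so they do not set the meiotic genes apart. A match is a description of the letters only.

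Stag3 (probe set 17443833) had the widest gap between genotypes of the 17750 genes tested, counted in either direction. The wild-type L-GMP arrays 1, 2 and 3 read 8.56, 9.22 and 7.95 log2 units and the knockout ones 5.79, 5.47 and 6.14. For whole leukemia the readings were 8.33, 8.74 and 7.61 with AMPK and 5.28, 5.77 and 6.13 without it. The genotypes did not overlap in either population or across them, and the highest knockout value, 6.14, was 1.47 log2 units below the lowest wild-type value, 7.61. All 6 knockout arrays lay below all 6 wild-type arrays for 66 of 17750 genes (0.372%), and among these the gap of Stag3 was the widest. The next were those of the uncharacterised transcript 1700080G11Rik (1.21) and of Dennd5b (1.08), a regulator of Rab GTPases, while that of Prkaa1, encoding the catalytic alpha 1 subunit of AMPK, was 0.27. In the other direction all 6 knockout arrays lay above all 6 wild-type arrays for 50 genes, with the widest gap for Msantd3 (0.57).

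**Figure D1:**
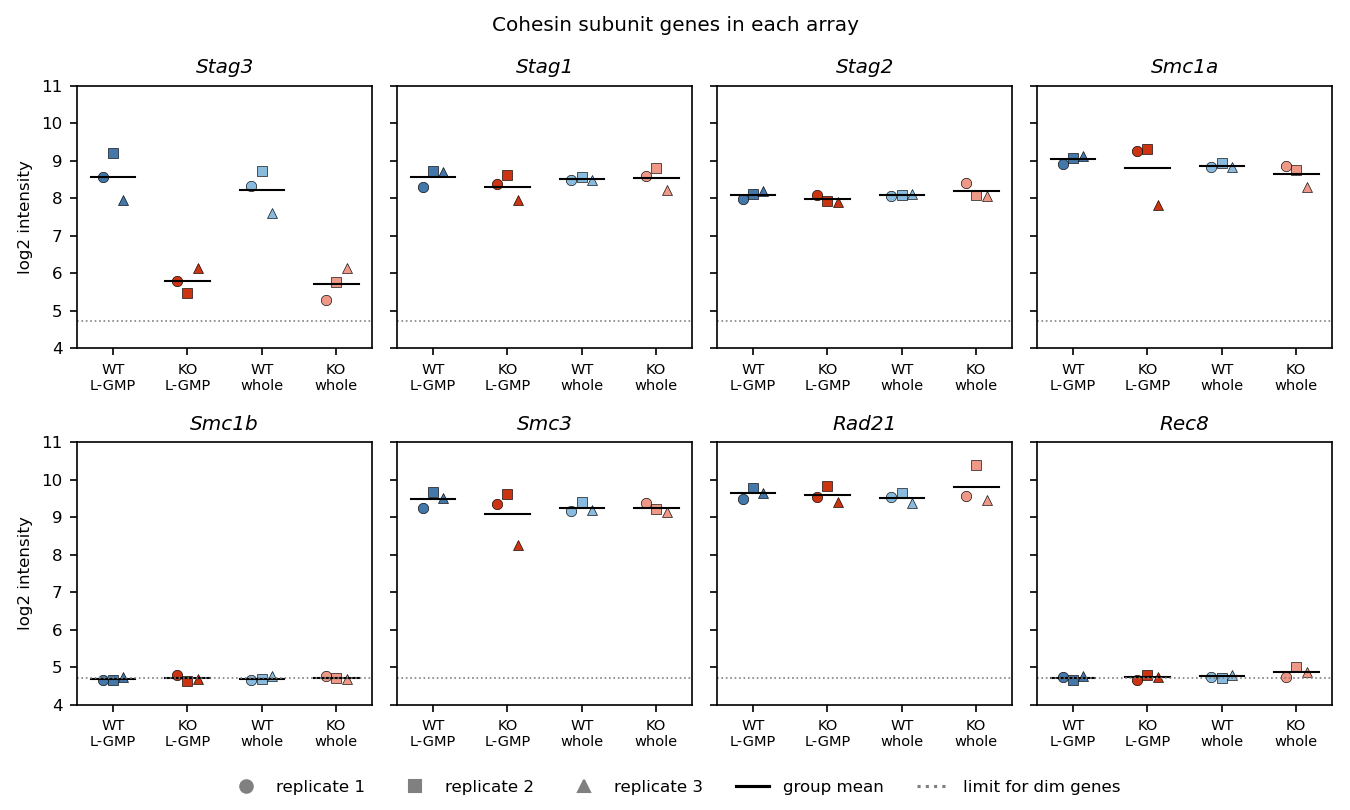
Log2 intensity of the 8 cohesin genes in each of the 12 arrays (points, shaped by replicate number), with group means (bars) and the limit of 4.72 below which genes were treated as dim (dotted line). Stag3 sits between 5.28 and 6.14 in the knockout arrays and between 7.61 and 9.22 in the wild-type arrays, whereas the genotypes overlap for each of the other 7 genes.

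The Stag3 means in L-GMP were 5.80 ± 0.34 for the knockout and 8.58 ± 0.63 for the wild type (log2 units, SD, n = 3). Their difference was -2.77 (SE 0.37, 95% interval -3.59 to -1.96), or 6.84-fold lower in the knockout (3.88- to 12.1-fold). The whole leukemia means were 5.73 ± 0.43 and 8.23 ± 0.57, which differ by -2.50 (SE 0.37, 95% interval -3.32 to -1.69), or 5.67-fold lower (3.22- to 9.99-fold). Both were the most negative differences among the 17750 genes tested, of which 63 in L-GMP and 99 in whole leukemia lay below -1. The knockout values remained above the limit for dim genes, with a lowest linear intensity of 38.9 in knockout whole leukemia array 1 against 594.3 in wild-type L-GMP array 2, the highest. These are the values that chose the gene and they carry no test. In sorted populations, fewer cells that express a gene and less RNA per cell cannot be told apart.

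Wild-type whole leukemia and L-GMP arrays followed each other in Stag3. In both populations replicate 2 was highest and replicate 3 lowest, and L-GMP lay above the whole leukemia array of the same number by 0.23, 0.47 and 0.33. The group difference of 0.35 (SE 0.37, 95% interval -0.47 to 1.16) did not pass limma's test over all genes (adjusted p = 1), nor with the replicate number as a block within the wild type, the setting of lowest p (adjusted p = 0.441). In the knockout L-GMP minus whole leukemia was 0.51, -0.30 and 0.01 by number, with a group difference of 0.07 (SE 0.37, 95% interval -0.74 to 0.89, adjusted p = 0.977 by limma). The order of the group means was thus wild-type L-GMP, wild-type whole leukemia, knockout L-GMP and knockout whole leukemia. Neither the first nor the last pair of neighbours passed limma's test over all genes. In the wild type, though, L-GMP was the higher in every same-number pair. The genotype difference in L-GMP minus that in whole leukemia was -0.27 (SE 0.52, 95% interval -1.43 to 0.89, adjusted p = 1 by limma), an interval wide enough to hold differences of either sign.

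The closest relatives of Stag3, the somatic subunit genes Stag1 and Stag2, showed no such separation. Stag1 (probe set 17520775) read 8.30, 8.74 and 8.71 in wild-type and 8.38, 8.61 and 7.95 in knockout L-GMP, and its difference was -0.27 (SE 0.19, 95% interval -0.70 to 0.16, adjusted p = 1 by limma). Whole leukemia arrays read 8.50, 8.57 and 8.50 for the wild type and 8.60, 8.81 and 8.24 for the knockout, which differ by 0.03 (95% interval -0.40 to 0.46). The genotypes overlapped in both populations. Stag2 (probe set 17534425) had the narrowest range of the somatic subunit genes, from 7.91 to 8.40 over all 12 arrays. Its difference was -0.13 (SE 0.11, 95% interval -0.37 to 0.11) in L-GMP and 0.10 (SE 0.11, 95% interval -0.14 to 0.34) in whole leukemia. The intervals allow a higher knockout level of Stag1 by up to 0.16 in L-GMP and 0.46 in whole leukemia, and of Stag2 by up to 0.11 and 0.34.

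Of the ring ATPases, Smc1a (probe set 17538862) read 8.92, 9.09 and 9.14 in L-GMP of the wild type and 9.25, 9.33 and 7.83 in those of the knockout. Knockout arrays 1 and 2 thus lay above all 3 wild-type arrays and array 3 below them. The difference of -0.24 (SE 0.33, 95% interval -0.98 to 0.49) did not pass (adjusted p = 1 by limma) and was 0.24 without that array. Smc3 (probe set 17360355) measured 9.26, 9.67 and 9.52 in wild-type and 9.35, 9.63 and 8.27 in knockout L-GMP, which differ by -0.40 (SE 0.28, 95% interval -1.03 to 0.23, adjusted p = 1 by limma) that was 0.01 without array 3. For both genes this 1 array carried the lower knockout mean. In whole leukemia Smc1a differed by -0.22 (95% interval -0.96 to 0.51) and Smc3 by -0.01 (95% interval -0.64 to 0.62).

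Rad21 (probe set 17316996), the kleisin, lay between 9.37 and 10.40 in all 12 arrays. Its highest value was in knockout whole leukemia array 2, against 9.37 to 9.82 in the other 11 arrays. The genotype difference was -0.05 (SE 0.22, 95% interval -0.54 to 0.44) in L-GMP and 0.29 (SE 0.22, 95% interval -0.20 to 0.78) in whole leukemia, where it was 0.00 without knockout array 2.

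**Figure D2:**
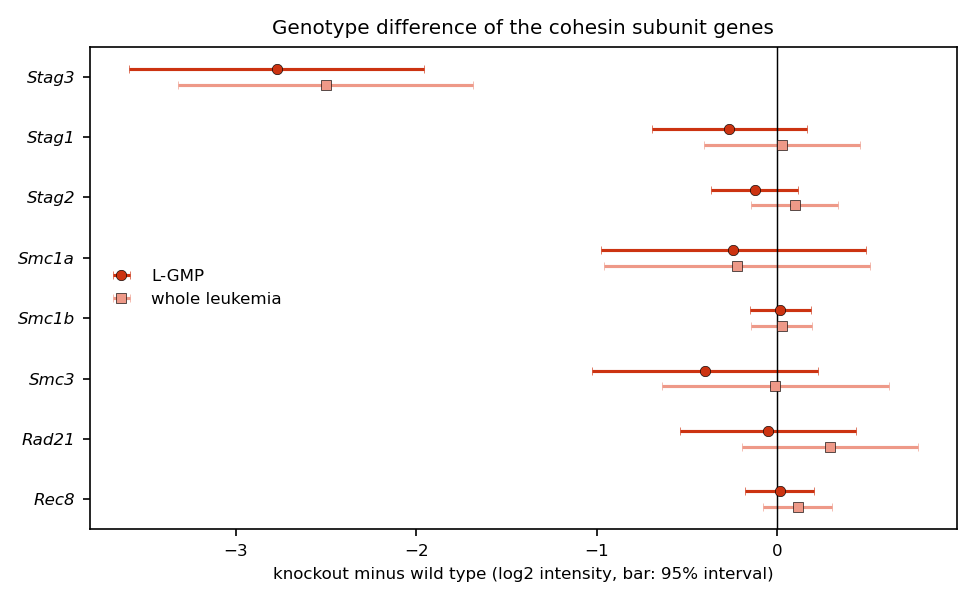
Knockout minus wild type in log2 intensity for the 8 cohesin genes, in L-GMP (circles) and whole leukemia (squares), with 95% intervals from the limma fit over all 12 arrays. The intervals of Stag3 end at -1.96 and -1.69, and those of the other 7 genes all include 0 and reach down to -1.03 at most.

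The meiotic partners of Stag3 were near the limit for dim genes in every group. Rec8 (probe set 17300608), the meiotic kleisin, ranged from 4.65 to 4.997, and Smc1b (probe set 17320037), the meiotic ATPase, from 4.63 to 4.78, below the limit of 4.72 on average. Smc1b was kept in the test as a cohesin gene although its mean fell under that limit. Their genotype differences were 0.01 and 0.02 in L-GMP and 0.11 and 0.02 in whole leukemia. Near background such differences are compressed, so a change in a faint transcript was not detectable here.

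Of the 7 genes other than Stag3, 0 were called in L-GMP by limma at an adjusted p under 0.05 (1 of 17750 genes tested, 0.00563%) and 0 in whole leukemia (0% of all genes). At an unadjusted p under 0.05 there were 0 of the 7 in either population, against 4.13% of all genes in L-GMP and 5.97% in whole leukemia, shares at which 0 of 7 does not set these genes apart. The arrays of the genotypes overlapped for all 7 in both populations, where 9.48% of all genes in L-GMP and 11.2% in whole leukemia did not overlap. The median difference of the 7 genes was -0.13 in L-GMP (0.02 over all genes) and 0.03 in whole leukemia (0.00 over all genes). Without knockout L-GMP array 3 the L-GMP median was 0.01. Between L-GMP and whole leukemia 0 of the 8 genes were called in the wild type or in the knockout (0% of all genes in both, but 13 genes higher and 27 lower in the knockout without its whole leukemia array 1), and 0 in the genotype-by-population interaction (0% of all genes). At an unadjusted p under 0.05 these counts were also 0 of 8, against 2.5% of all genes in the wild type, 7.39% in the knockout and 2.06% in the interaction. The gene of lowest p among the 8 was Stag2 in the knockout (-0.21, 95% interval -0.45 to 0.03, adjusted p = 0.687 by limma).

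Some of the arrays in which somatic subunits stood apart were also at the ends of the range of mitotic genes. The mean over 14 measured G2/M genes was 6.76 in knockout L-GMP array 3 and 6.88 in knockout whole leukemia array 3, against 7.86 to 8.92 in the other 10 arrays, and highest in knockout whole leukemia array 2. Smc1a, Smc3, Stag1 and Stag2 had their lowest values of all 12 arrays in knockout L-GMP array 3. Rad21 and Stag1 had their highest in knockout whole leukemia array 2, where Smc1a and Smc3 were at no extreme (8.77 and 9.23). Stag2 was highest (8.40) in knockout whole leukemia array 1 and Rad21 lowest (9.37) in wild-type whole leukemia array 3. The G2/M means of those arrays, 7.95 and 8.08, were not at the ends of the range. Within the knockout, the arrays with the lowest G2/M means had the highest Stag3 values (6.14 and 6.13), and the other 4 read 5.28 to 5.79. The wild type did not share this order. Its L-GMP and whole leukemia arrays 2 had the highest G2/M means of their groups (8.47 and 8.22) and the highest Stag3 values (9.22 and 8.74). Its arrays 3, lowest in Stag3 (7.95 and 7.61), had middle G2/M means (8.38 and 8.08). The part of the cell cycle in the values of Stag3 and of the somatic subunits was not tested.

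**Figure D3:**
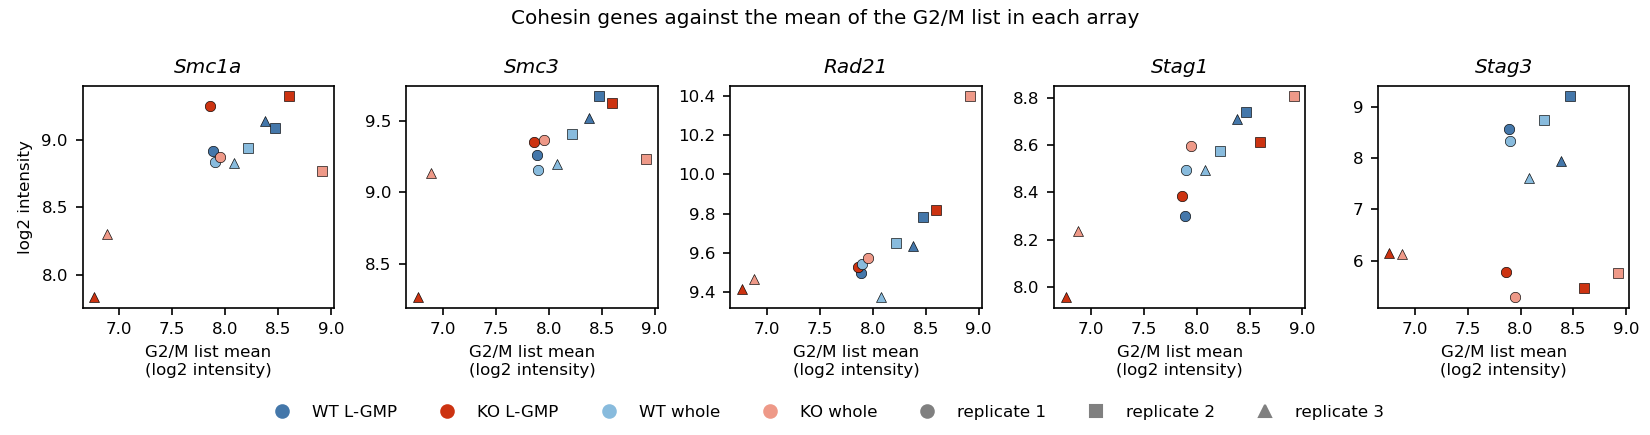
Log2 intensity of 4 somatic subunit genes and Stag3 (vertical axes, each with its own range) against the mean of 14 G2/M genes in the same array (horizontal axis, log2 intensity), coloured by group and shaped by replicate number. Knockout arrays 3 of both populations lie at the left (6.76 and 6.88) and knockout whole leukemia array 2 at the right (8.92), where Rad21 reaches 10.40, whereas Stag3 is lower in all 6 knockout arrays than in any wild-type array.

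Proteins that load, lock, acetylate or cleave cohesin form the next list, with 18 of 19 genes measured. By limma 0 rose and 0 fell in either population (lowest adjusted p = 1 in L-GMP and 0.829 in whole leukemia), and at an unadjusted p under 0.05 there was 1 of 18 in each, near the shares of all genes (4.13% and 5.97%). The genotypes did not overlap for 2 of 18 in L-GMP (9.48% of all genes) and 2 of 18 in whole leukemia (11.2%). The median difference was -0.04 in L-GMP and -0.02 in whole leukemia. The loader gene Nipbl had the lowest difference in L-GMP, with 8.17 ± 0.84 for the knockout and 8.83 ± 0.16 for the wild type (-0.67, SE 0.33, n = 3), followed by the cohesin regulator gene Pds5b (-0.65, SE 0.27). At the other end were Wapl, encoding the factor that releases cohesin from chromatin (0.19, SE 0.17), and the helicase gene Ddx11 (0.22, SE 0.13). In whole leukemia Pds5b (-0.50) and the clamp loader gene Chtf8 (-0.49) were lowest, and Wapl (0.38) and the shugoshin gene Sgo2a (0.27), which protects cohesin at centromeres, highest. Without knockout L-GMP array 3 the L-GMP median was 0.11, and without knockout whole leukemia array 2 that of whole leukemia was -0.17.

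Of the related condensin and SMC5/6 complexes, which compact chromosomes and help repair them, 14 of 15 genes were measured and 0 were called in either population (lowest adjusted p = 1 in L-GMP and 0.844 in whole leukemia by limma), with 2 of 14 at an unadjusted p under 0.05 in L-GMP (4.13% of all genes) and 0 in whole leukemia (5.97%). The genotypes did not overlap for 3 of 14 in L-GMP (9.48% of all genes), all lower in the knockout, and for 0 in whole leukemia (11.2%). In L-GMP 12 of 14 had a lower mean in the knockout, with a median of -0.41. The condensin ATPase genes Smc2 (-0.74, SE 0.58) and Smc4 (-0.67, SE 0.24) were lowest and the SUMO ligase gene Nsmce2 (0.11) highest. Without knockout L-GMP array 3, the array of lowest G2/M mean, 7 of 14 were lower and the median was -0.05. In whole leukemia the median was -0.09, from -0.35 for Smchd1 and -0.32 for Nsmce4a to 0.26 for Smc4 and 0.55 for the condensin II gene Ncapg2, and it was -0.27 without knockout array 2.

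Stag3 belongs to the meiotic program, whose other genes were either dim or, with the exception of Hormad2, differed by less than 1 log2 unit between genotypes. Of 49 genes of meiotic prophase 44 were measured, and 18 of these were dim and left out of the test, among them Rad21l, encoding a further meiotic kleisin, the synaptonemal complex genes Sycp1 and Sycp2, Spo11, which makes the breaks of meiotic recombination, and Stra8, an inducer of meiosis. The dim limit was set on the mean of all 12 arrays. Of the 26 tested, 0 were called in either population by limma (lowest adjusted p = 1 in L-GMP and 0.829 in whole leukemia), with 1 of 26 at an unadjusted p under 0.05 in each (4.13% and 5.97% of all genes). All 6 knockout arrays lay below all 6 wild-type arrays for 0 of the 26 (0.372% of all genes), and the genotypes did not overlap for 0 in L-GMP (9.48% of all genes) and 3 in whole leukemia (11.2%). The knockout mean was lower for 17 of 26 in L-GMP and 19 of 26 in whole leukemia, with medians of -0.03 and -0.07 (0.02 and 0.00 over all genes). The mean over the 26 genes was 5.77 to 5.96 in wild-type and 5.63 to 5.74 in knockout L-GMP, which do not overlap, and 5.73 to 5.83 and 5.54 to 5.75 in whole leukemia, which do. These means include Hormad2, at 7.28 and 7.52 in wild-type L-GMP arrays 1 and 2 and 4.78 to 5.12 in knockout L-GMP. The gap in L-GMP therefore cannot be read as one of the list as a whole. A difference below -1 was held by 1 of the 26 in each population, and this was Hormad2 in both.

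Hormad2, which encodes a protein of meiotic chromosome axes, was at -1.55 (SE 0.66) in L-GMP and -1.27 (SE 0.66) in whole leukemia. It measured 7.28, 7.52 and 4.88 in wild-type L-GMP and 6.65, 6.91 and 4.96 in wild-type whole leukemia. The 6 knockout values lay between 4.78 and 5.12. Replicate 3 of the wild type thus lay among the knockout values in L-GMP and just above the highest of them, 4.91, in whole leukemia, while Stag3 was also lowest among wild-type arrays in replicate 3 but stayed above every knockout array there. The meiotic recombinase gene Dmc1 was measured at 7.50 ± 0.26 in wild-type and 6.90 ± 0.56 in knockout L-GMP (-0.61, SE 0.39). Mei4 (0.18), which acts in break formation, and Rnf212 (0.16), which acts in crossing over, had the highest differences in L-GMP. In whole leukemia the mismatch repair gene Mlh3 (-0.60) followed Hormad2, and Rec114 (0.42) and Msh5 (0.22), of break and crossover formation, were highest.

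Other germline genes that somatic cells keep silent were close to 0 in their median difference. Of 25 listed 24 were measured and 7 were dim, among them Dazl and Ddx4. Of the 17 tested 0 were called (lowest adjusted p = 1 in L-GMP and 0.829 in whole leukemia by limma; 1 of 17 at an unadjusted p under 0.05 in L-GMP and 0 in whole leukemia, against 4.13% and 5.97% of all genes), with medians of -0.01 and 0.04. The genotypes did not overlap for 2 of the 17 in L-GMP (9.48% of all genes), 1 lower and 1 higher in the knockout. In whole leukemia they did not overlap for 5 of the 17 (11.2% of all genes), 4 lower and 1 higher. Tdrkh and Mybl1 were lowest in both populations, at -0.36 and -0.26 in L-GMP and -0.48 and -0.19 in whole leukemia. Mov10l1 (0.20) and Nanos3 (0.19) were highest in L-GMP, and Tex14 (0.26) and Nanos2 (0.22) in whole leukemia.

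Among 23 genes whose products repress germline genes, 0 were called in either population (lowest adjusted p = 1 and 0.827 by limma; 0 and 2 of 23 at an unadjusted p under 0.05, against 4.13% and 5.97% of all genes), with medians of 0.02 in L-GMP and -0.03 in whole leukemia. E2f6 measured 5.97 ± 0.30 in wild-type and 5.96 ± 0.34 in knockout L-GMP, and 6.09 ± 0.32 and 6.00 ± 0.17 in whole leukemia, differences of -0.01 and -0.10 (SE 0.22). Its partner gene Mga had the lowest difference of the list in L-GMP (-0.44, SE 0.29), followed by the maintenance DNA methyltransferase gene Dnmt1 (-0.31). Rybp (0.40), of Polycomb complexes, and the de novo methyltransferase gene Dnmt3b (0.43) were highest. In whole leukemia Trim28 (-0.50) and the histone methyltransferase gene Ehmt2 (-0.35) were lowest, and Yaf2 (0.47) and Rybp (0.45) highest. The genotypes did not overlap for 4 of the 23 in L-GMP (9.48% of all genes), 1 lower and 3 higher in the knockout. In whole leukemia they did not overlap for 2 of the 23 (11.2% of all genes), 1 lower and 1 higher. Without knockout L-GMP array 3 the L-GMP median was 0.15.

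**Figure D4:**
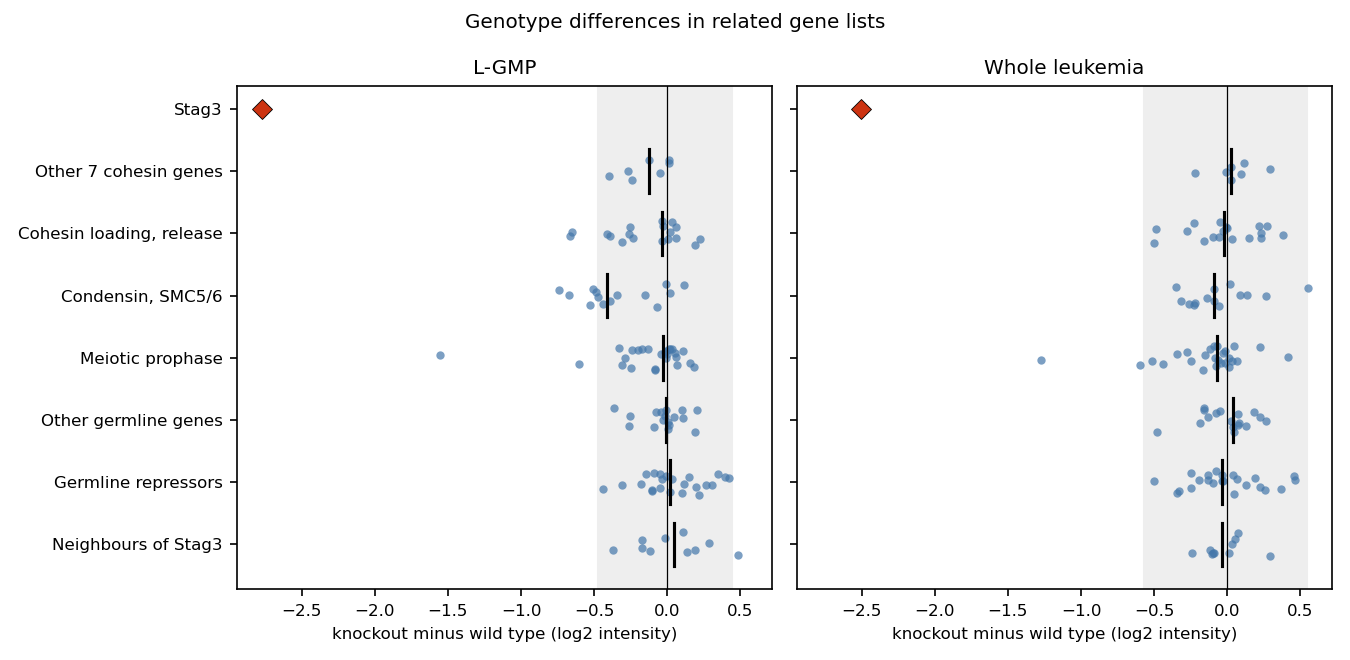
Knockout minus wild type in log2 intensity for Stag3 (diamond) and for each tested gene (points) of the related lists and of the neighbours of Stag3, with list medians (bars) and the middle 95% of all 17750 genes (grey band). Stag3 lies at -2.77 and -2.50, and the nearest point of any list is Hormad2 at -1.55 in L-GMP and -1.27 in whole leukemia.

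The genes beside Stag3 on chromosome 5 were examined for differences along the chromosome. Of the 10 nearest genes with a tested probe set, 5 on each side by RefSeq order, 0 were called in either population (lowest adjusted p = 1 in L-GMP and 0.858 in whole leukemia by limma). Over all genes 1 of 17750 (0.00563%) was called in L-GMP and 0% in whole leukemia. At these shares 0 of 10 does not set the neighbours apart. Their differences ran from -0.37 to 0.49 in L-GMP and from -0.24 to 0.29 in whole leukemia, with 5 above 0 and 5 below 0 in each and medians of 0.05 and -0.04. Gpc2, which encodes a cell surface proteoglycan and lies within the RefSeq span of Stag3, had the lowest difference in L-GMP. Its means there were 5.81 ± 0.21 for the wild type and 5.43 ± 0.19 for the knockout (-0.37, SE 0.13), but 5.83 ± 0.09 and 5.89 ± 0.07 in whole leukemia (0.05). The genotypes did not overlap for Gpc2 and for the lysosomal Ragulator gene Lamtor4 (0.11) in L-GMP, 2 of the 10 (9.48% of all genes), and for 0 of the 10 in whole leukemia (11.2%). The other neighbours were Map11 (-0.12), Nxpe5 (0.14), Mblac1 (0.28), Cnpy4 (-0.18), Zfp157 (0.49), 1700123K08Rik (0.19), A430033K04Rik (-0.01) and the secretory kinase gene Fam20c (-0.17), each given as the L-GMP difference.

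Genes whose levels over the 12 arrays were most like those of Stag3 were ranked by Pearson's r among the other 17749 genes. The arrays of 1 genotype share the trait on which Stag3 was chosen and arrays of 1 number may share a mouse, so r is a description. The highest was Dennd5b (r = 0.96), with 6.90 ± 1.03 in wild-type and 4.78 ± 0.26 in knockout L-GMP and 7.14 ± 0.36 and 4.73 ± 0.31 in whole leukemia. 1700080G11Rik, a long noncoding RNA gene on chromosome 4, was second (r = 0.94) and is named outside the rule for named genes, after its values were seen, since it was the 1 gene called in L-GMP (-2.67, SE 0.28, adjusted p = 0.0314 by limma). No gene was called there with no filter on dim genes, with the L-GMP groups alone, with the replicate block, or in 10 of the 12 fits that left out 1 array. Next came Tns1, of focal adhesions (0.93), Get3, of membrane protein insertion (0.91), the bicarbonate transporter gene Slc4a8 (0.90), the transcription factor gene Dmtf1 (0.89) and Ccpg1os (0.89). The most opposite were the transcription factor gene Bcl11a (-0.92), Msantd3 (-0.91) and the lipid kinase gene Pip5k1b (-0.91). An r over 0.9 was reached by 4 genes and one under -0.9 by 5, and the median size of r was 0.25. The other cohesin genes had values of r from -0.41 for Rec8 to 0.24 for Smc3.

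**Figure D5:**
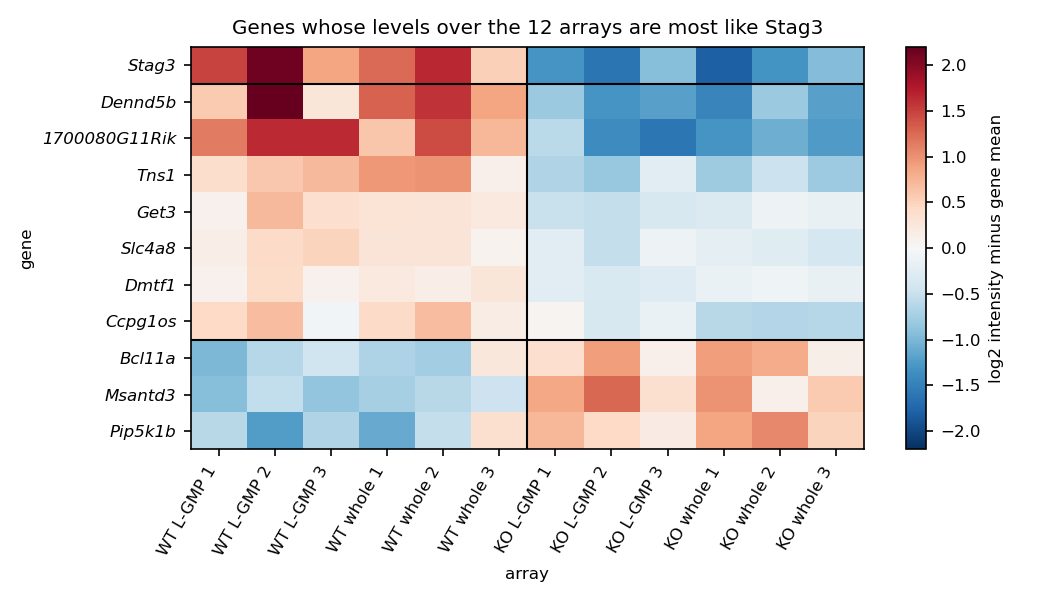
Log2 intensity minus the gene's mean over the 12 arrays (colour) for Stag3, the 7 genes shown as most like it and the 3 most opposite, with wild-type arrays left of the line and knockout arrays right of it. Stag3, Dennd5b and 1700080G11Rik have the strongest contrast between the sides.

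The arrays and their labels were checked as follows. Prkaa1 lay between 6.83 and 7.45 in knockout arrays and between 7.72 and 8.69 in wild-type arrays, and did not pass limma (adjusted p = 0.622 in L-GMP and 0.591 in whole leukemia). Prkaa2, encoding the alpha 2 subunit, was near background, at 4.66 to 5.05. Pearson correlations between arrays were 0.902 to 0.986, and at least 0.943 without knockout whole leukemia array 2. Of the gate markers Cd34 measured 9.45 to 10.05 in all 6 L-GMP arrays, and in whole leukemia 8.35 to 9.38 for the wild type and 5.54 to 7.05 for the knockout. Of the other cell type lists, the mean over 8 of 8 monocyte genes was 8.37 to 8.77 in wild-type and 7.37 to 7.91 in knockout whole leukemia, and 7.95 to 8.56 and 7.75 to 7.96 in L-GMP. The neutrophil mean (8 of 8) was 7.55 to 10.16 and 9.06 to 11.67 in whole leukemia, and 6.06 to 8.75 and 7.19 to 8.10 in L-GMP. The erythroid mean (4 of 8 measured) was 4.91 to 5.14 and 5.10 to 8.73 in whole leukemia, highest in knockout array 2, and that of eosinophil and mast cell genes (6 of 8) reached 8.24 in knockout L-GMP array 2. T and NK genes (4 of 8 tested, with Cd3g and Il7r dim) averaged 4.87 to 5.93 and B cell genes (5 of 8, with Ms4a1 and Ebf1 dim) 5.42 to 5.81. Beside these shifts the Stag3 difference was -2.77 in the lineage-negative L-GMP sort. The Cd34 means there were 9.76 for the wild type and 9.67 for the knockout. Those of the gate gene Kit were 7.56 and 8.64 (1.08, SE 0.475), with overlapping arrays. The gate genes Fcgr3 and Fcgr2b differed by 0.07 and -0.05. The part of cell composition in the Stag3 difference was not tested.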

How the data were processed

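Per the labels' protocols, RNA of 5000 sorted cells was turned into biotinylated cDNA with NuGEN kits. The authors deposited 33794 linear intensity values per array, spanning 17.96 to 9108.2 with array medians of 36.9 to 39.3. How the scans were corrected and normalized, and with which software, is not given in the sources used here. Log2 was taken without a pseudocount. Symbols came from the platform annotation (23521 probe sets with 1 symbol, 1814 with several, 8459 not listed), and 99.2% of gene identifiers were found in RefSeq GRCm38.p6, which changed 0 symbols and otherwise gave neighbours and promoters. Each gene took its brightest single-symbol probe set. Genes with a mean under 4.72, the 25th percentile of probe set means, were not tested, except for Smc1b, which left 17750. Limma 3.58.1 (R 4.3.3, statmod 1.5.0) (lmFit, eBayes) fitted a mean for each group to the 12 arrays, with 8 residual and 2.36 prior degrees of freedom and Benjamini-Hochberg adjustment over all genes tested, and a gene was called at an adjusted p under 0.05. The script was tested on simulated data. With 3 arrays a group, their number limits the precision (median standard error of a group difference 0.153 log2 units). Wild-type L-GMP and whole leukemia deviations of the same number correlated at 0.36, 0.62 and 0.30. The main fit did not pair them, and pairs by number entered only as alternatives. The members, lists and alternatives were chosen with earlier results of these data known. Named were the members, Prkaa1, Prkaa2, 5 tested neighbours on each side, the 6 most alike and 3 most opposite genes, and per list the 2 highest and 2 lowest differences. E2f6, Cd34, Kit, Fcgr3, Fcgr2b, 1700080G11Rik and dim list genes were named outside this rule, after their values were seen. Alternatives were quantile normalization, normexp with an offset of 16, other filters and probe set rules, array weights, a trended variance, the compared groups alone, replicate blocks and leaving out each array.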

Additional observations from a re-analysis of the deposited data

How the results depend on the processing

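The counts of cohesin genes called by limma were 0 in all 5 comparisons and stayed at 0 under each alternative run. For the genotype comparisons these counts cover the 7 genes other than Stag3, which was not tested there, and otherwise all 8. The lowest adjusted p-values by limma were 0.512 and 0.489 for the genotype in L-GMP and whole leukemia. They were 0.441 and 0.334 for the populations in wild type and knockout, and 0.921 for the interaction. The Stag3 difference between genotypes ranged from -3.09 to -2.46 in L-GMP and from -2.81 to -2.25 in whole leukemia when each array was left out in turn, and from -2.83 to -2.53 and -2.56 to -2.34 under the other settings. Of those other settings, only quantile normalization, normexp and array weights could change the Stag3 difference. The rest leave its group means as they are. With the replicate number as a block the differences thus stayed at -2.77 and -2.50 by design, and the counts were again 0. Same-numbered arrays of the 2 genotypes correlated between -0.10 and 0.19 and those of the knockout populations at 0.13, 0.09 and 0.43. The main fit did not take the numbers as pairs there either. Without knockout L-GMP array 3 the Smc1a and Smc3 differences in L-GMP were 0.24 and 0.01, and those in the interaction 0.47 and 0.02. The blocks within 1 genotype and the list medians without knockout L-GMP array 3 or knockout whole leukemia array 2 were chosen after seeing the data. Over all genes, the count called in L-GMP was 1 as reported, 4 with array weights, 2 with a trended and robust variance or the mean of all probe sets, and 0 with no filter, the compared groups alone or the replicate block, and 0 to 2 when each array was left out (0 in 10 of 12). Between populations of the knockout it was 0 as reported, 13 higher and 27 lower without knockout whole leukemia array 1, 2 with the block by genotype and number, and 1 with a trended and robust variance or the lowest 50% of probe sets left out. Values near 4.7 log2 bound what can be read for Rec8 and Smc1b.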

Other observations

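The promoter letters searched above were also counted in the lists. Windows were at hand for 36 of 44 measured meiotic prophase genes, 22 of 24 other germline genes and 13 of 18 loading and release genes. Some genes had more than 1 window, so the shares are of windows and not of genes. Windows of the measured meiotic prophase genes held the E2F-type letters in 23 of 43 cases (53.5%), the E-box letters in 9 (20.9%) and both in 8 (18.6%). Windows of the other germline genes held the E2F-type letters in 5 of 26 cases (19.2%) and the E-box letters in 12 (46.2%), and both in 3 (11.5%). Those of the cohesin loading and release genes held the E2F-type letters in 7 of 15 cases (46.7%), the E-box letters in 4 (26.7%) and both in 1 (6.67%). A share of E2F-type letters above that of all windows was thus not particular to the meiotic list. The meiotic windows had a median of 18 CpG dinucleotides, the germline windows one of 20 and the loading and release windows one of 27, against 7 over all windows. That of Stag3 had 30, more than 88.3% of all windows. Base composition was not adjusted for. Between genotypes 0 genes of any of these lists were called, against 0.00563% of all genes in L-GMP and 0% in whole leukemia. At these shares a count of 0 does not set the lists apart.

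Of the genes most like Stag3, 1700080G11Rik held the E-box letters once in its promoter window, at -33, and no E2F-type letters, and the window of Dennd5b held neither. Gpc2, within the RefSeq span of Stag3, held the E2F-type letters in its own window at -74 and at 32, and no E-box letters.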
